A study of Bos taurus with 8 samples.

Results

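MHC class II genes, the invariant chain gene CD74 and the class II transactivator CIITA were followed in bovine peripheral blood mononuclear cells after exposure of whole blood to lipopolysaccharide (LPS), a cell wall component of Gram-negative bacteria. Every row of the scRNA-seq tables whose name begins with BOLA-D was taken, together with CD74 and CIITA, which gave 11 of 21861 listed genes. They are BOLA-DRA (ENSBTAG00000010645), BOLA-DQA5, BOLA-DQB, BOLA-DYA, BOLA-DYB, BOLA-DMA (ENSBTAG00000015730), BOLA-DMB (ENSBTAG00000012451), BOLA-DOA (ENSBTAG00000006490), BOLA-DOB (ENSBTAG00000047707), CD74 (ENSBTAG00000015228) and CIITA (ENSBTAG00000020649). Blood of 4 female, lactating Holstein cattle aged 2 years was pooled before treatment and divided into 4 portions, 1 kept without LPS and 3 exposed to it (2 µg/ml) for periods of 2 h, 4 h and 8 h. Mononuclear cells of each portion gave 1 scRNA-seq and 1 scATAC-seq library, so no difference below has a replicate check, and a library effect cannot be told apart from a treatment effect. The animals cannot be separated within the pool, and for the portion without LPS no incubation time was given, so LPS and time in incubation cannot be told apart either.

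MHC class II molecules are pairs of an alpha and a beta chain that display peptides from endocytosed proteins to CD4 T cells. CD74 fills the groove during assembly, the DM pair exchanges its last fragment for peptides, the DO pair restrains DM, and CIITA is the coactivator that class II promoters need. B cells, monocytes and dendritic cells are the professional presenting cells of blood, while cattle also carry DY genes, which are confined to ruminants and known from dendritic cells.

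Cells were classed by their transcripts of MS4A1 (CD20, B cells), CD14 (monocytes), FLT3 (dendritic cells) and CD3E (T cells), counted as unique molecular identifiers (UMIs). A cell entered a class with at least 1 UMI of that gene and none of the other 3, which classed 22116 of 28484 cells kept. The MS4A1-positive class held 1691, 2395, 1898 and 663 cells, in the order no LPS, then 2 h, 4 h and 8 h of exposure, which is used throughout. The CD14-positive class held 792, 374, 146 and 169 cells, the FLT3-positive class 20, 16, 8 and 6, and the CD3E-positive class 3518, 4970, 3895 and 1555. Of all cells with a CD14 UMI, 64.2%, 59.55%, 49.7% and 38.4% entered the class, and for FLT3 55.6%, 44.4%, 36.4% and 35.3%. The shares were 80.0%, 84.0%, 86.3% and 68.1% for MS4A1 and 88.0%, 91.4%, 92.9% and 82.1% for CD3E. The part of the cells left out in the differences between libraries was not tested. UMIs were summed over each class and library and given as CPM, the UMIs of a gene per 1000000 UMIs of that sum, with 95% intervals that cover counting error only. The cells kept held between 16657841 UMIs at 8 h and 47875879 at 2 h, and any pair of libraries shared 8 to 24 barcodes.

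The classes carried other markers of their names, with limits among FLT3-positive and CD14-positive cells. CD79A lay between 156 and 313 CPM in MS4A1-positive cells, CSF1R between 51.9 and 131 CPM in CD14-positive cells, and CD3D between 114 and 131 CPM in CD3E-positive cells. In FLT3-positive cells CSF1R and CD3D had no UMI, but other markers of their lists were present. The 10 monocyte markers summed to 512, 474, 474 and 195 CPM there, and the 10 T cell markers to 236, 289, 301 and 141 CPM. The 4 plasma cell markers summed to 677, 154, 54.7 and 260 CPM. Of the dendritic cell markers, XCR1 was at 0 in every library and CLEC9A and CADM1 had 1 UMI each in FLT3-positive cells. Their most abundant dendritic cell markers were BATF3, at 843 to 1398 CPM, and IDO1, at 443 to 1517 CPM, and BATF3 was as high in CD14-positive cells (1059 to 1419 CPM). FLT3-positive cells are therefore called by that gene, without a cell type name. In CD14-positive cells the 10 monocyte markers summed to 37080, 12310, 7572 and 10560 CPM. The 4 neutrophil markers summed to 9017, 5053, 6059 and 10330 CPM there, and the 10 T cell markers to 434, 594, 764 and 839 CPM. CD14-positive cells are therefore called by their gene as well. At 8 h, 44.4% of the CD14-positive cells and 13.7% of the MS4A1-positive cells had under 1500 UMIs, against 18.3% and 5.68% without LPS.

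The members differed widely in counts. Over all cells kept, BOLA-DRA had 163078 UMIs and CD74 132020, BOLA-DOB 10434, BOLA-DMB 7798, BOLA-DMA 6137, BOLA-DOA 2349 and CIITA 1309. BOLA-DQA5 had 390, BOLA-DQB 178 and BOLA-DYB 167 UMIs, and BOLA-DYA had 4. The DQ genes exist in near-identical copies, so reads can be split or lost between copies and the low DQ counts are uncertain. Another row of the tables, BLA-DQB, carries a name that RefSeq lists as a synonym of BOLA-DQB1, and it reached 1024 to 2283 CPM in MS4A1-positive cells against 2.30 to 4.34 CPM for the row BOLA-DQB. All 11 symbols were matched in the RefSeq table of assembly ARS-UCD2.0, a later assembly than the ARS-UCD1.2 genome of the files. There the BOLA-D genes lie on chromosome 23, with BOLA-DYA, BOLA-DYB and BOLA-DOB adjacent, BOLA-DMB next to BOLA-DMA, and BOLA-DQB next to BOLA-DQA5. Between BOLA-DOA and BOLA-DQB lie 241 protein-coding genes, which places DM, DO and DY in one cluster and DQ and DR in another. CIITA lies on chromosome 25 and CD74 on chromosome 7.

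The antigen-presenting chain BOLA-DRA and its chaperone CD74 followed one order of classes in every library, with FLT3-positive cells highest, then MS4A1-positive, CD14-positive and CD3E-positive cells. BOLA-DRA, the invariant alpha chain of the DR molecule, was at 11410, 10620, 10830 and 4649 CPM in FLT3-positive cells. In MS4A1-positive cells it was at 2887, 3354, 2468 and 1681 CPM, and in CD14-positive cells at 1353, 1484, 1342 and 1193 CPM. No pair of classes had overlapping BOLA-DRA intervals within a library. At 8 h the MS4A1-positive and CD14-positive levels were closest, where CD14-positive cells held 71.0% of the MS4A1-positive level (66.3% to 75.9%), against 46.9% without LPS. CD74 was at 5786, 5890, 6740 and 4779 CPM in FLT3-positive cells, at 2392, 2423, 2450 and 1997 CPM in MS4A1-positive cells and at 926, 811, 988 and 705 CPM in CD14-positive cells. Its level in CD14-positive cells stayed between 33.5% and 40.3% of that in MS4A1-positive cells.

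**Figure D1:**
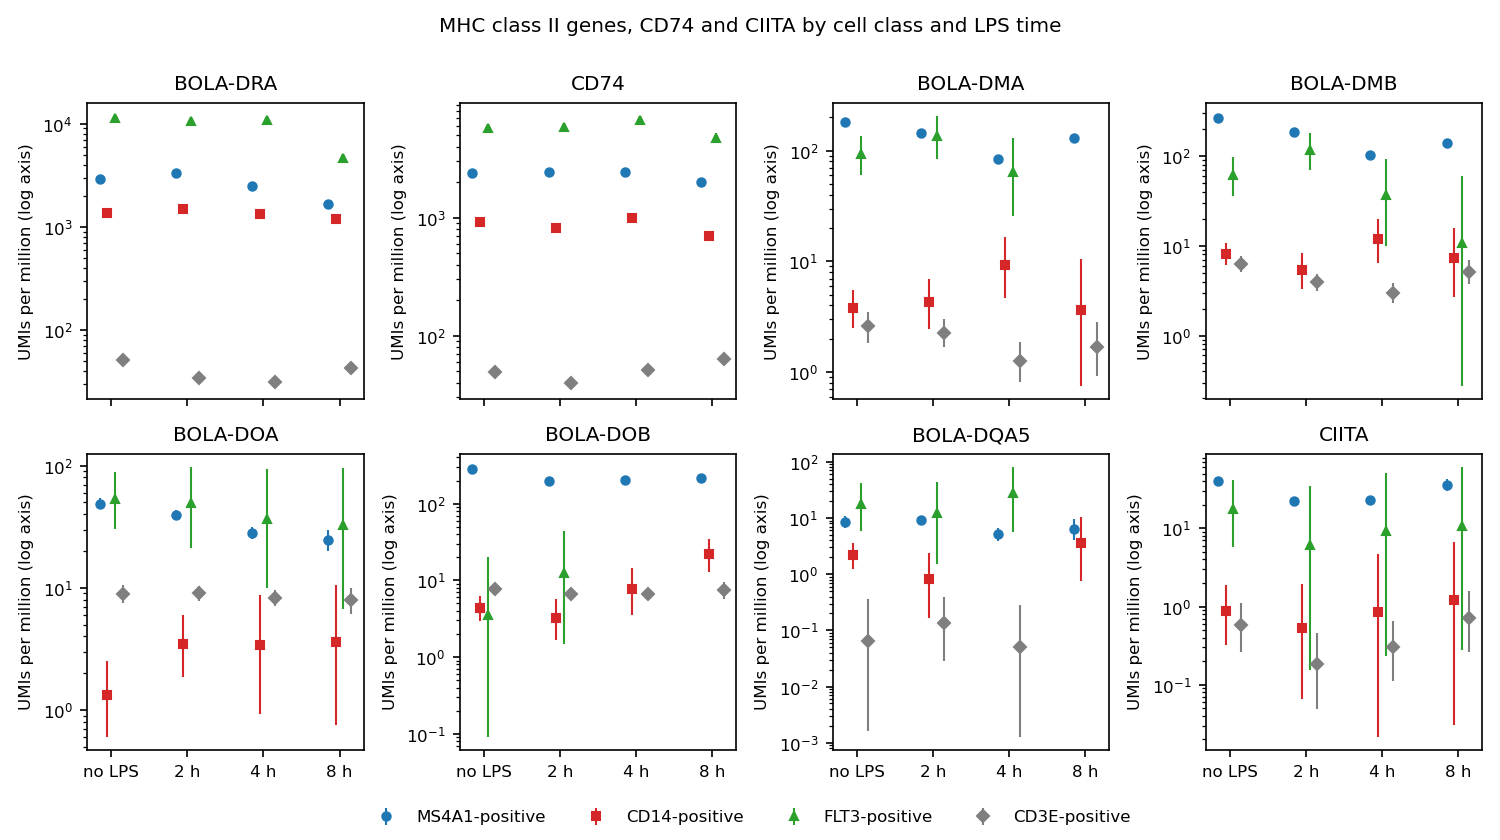
Level of 8 members in CPM (log axis) by library, in MS4A1-positive (circles), CD14-positive (squares), FLT3-positive (triangles) and CD3E-positive cells (diamonds), with 95% Poisson intervals, and sums with 0 UMIs not drawn. BOLA-DRA and CD74 are highest in FLT3-positive cells, whereas BOLA-DOB is highest in MS4A1-positive cells in each library.

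The genes that edit the peptide followed another order. BOLA-DOB, the beta chain of the DO molecule, was at 286, 199, 204 and 215 CPM in MS4A1-positive cells. In FLT3-positive cells it had 1, 2, 0 and 0 UMIs, where 0 UMIs, taken as a limit of 3 UMIs, allows up to 27.4 CPM at 4 h and 32.5 CPM at 8 h (exact Poisson limits 33.6 and 39.98 CPM), and in CD14-positive cells it was at 4.39, 3.23, 7.64 and 21.7 CPM. BOLA-DOB was thus high in MS4A1-positive cells, and all other sums lay far below them. BOLA-DOA, the alpha chain of the same molecule, did not share this pattern. It was at 48.8, 39.3, 28.0 and 24.5 CPM in MS4A1-positive cells and at 53.7, 49.2, 36.5 and 32.5 CPM in FLT3-positive cells, where the intervals of both classes overlapped in every library.

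BOLA-DMA and BOLA-DMB, the alpha and beta chains of DM, were high in MS4A1-positive cells and present in FLT3-positive cells. BOLA-DMA was at 182, 146, 83.9 and 131 CPM in MS4A1-positive cells and at 93.1, 135, 63.8 and 0 CPM in FLT3-positive cells. BOLA-DMB was at 265, 187, 102 and 141 CPM in MS4A1-positive cells and at 60.9, 117, 36.5 and 10.8 CPM in FLT3-positive cells, the last from 1 UMI. In CD14-positive cells, which held BOLA-DRA in 53.4% to 85.2% of cells, BOLA-DMA did not exceed 9.34 CPM and BOLA-DMB did not exceed 11.9 CPM. CIITA was at 39.7, 22.1, 23.2 and 36.0 CPM in MS4A1-positive cells, and had 6, 2, 1 and 1 UMIs in CD14-positive cells and 5, 1, 1 and 1 in FLT3-positive cells. Its intervals in MS4A1-positive and FLT3-positive cells overlapped in each library, so the order of these classes is not settled for CIITA by the counts.

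These orders were counted for members with at least 20 UMIs over both sums, with a 2-fold difference as the limit for a call. Of 8 members counted in all 4 libraries, 8 were at least 2-fold higher in MS4A1-positive than in CD3E-positive cells in each. Of all genes, 10.4%, 10.1%, 9.58% and 9.76% were, and 0 members were lower (9.56%, 10.8%, 11.4% and 10.2% of all genes). CIITA had 9, 4, 6 and 6 UMIs in CD3E-positive cells, and BOLA-DQA5 had 1, 3, 1 and 0. Both were thus counted only through their UMIs in MS4A1-positive cells, which all but fixes the direction of their calls. CD14-positive cells exceeded CD3E-positive cells for 2 of 6, 2 of 6, 4 of 6 and 3 of 5 members (15.4%, 12.6%, 12.8% and 13.3% of all genes), BOLA-DRA and CD74 among them in each library. In the same comparison 1, 1, 1 and 0 members were at least 2-fold lower, BOLA-DOA in each case (44.7%, 58.2%, 49.5% and 37.8% of all genes). MS4A1-positive cells exceeded CD14-positive cells in all 4 libraries for 6 of 8 members, the exceptions being BOLA-DRA and BOLA-DQA5. That count has to be read against 47.3%, 60.1%, 49.7% and 40.8% of all genes, and 0 members were lower (14.9%, 12.6%, 13.2% and 13.1% of all genes). BOLA-DRA and CD74 were at least 2-fold higher in FLT3-positive than in MS4A1-positive cells in each library (10%, 11.4%, 12.4% and 10.5% of all genes). BOLA-DOB and CIITA had ratios at least 2-fold lower there, as had 48.4%, 54.8%, 58.5% and 52.8% of all genes, but for CIITA this rests on 5, 1, 1 and 1 UMIs and on levels whose intervals overlapped. Against CD14-positive cells, FLT3-positive cells were higher for both members counted in all 4 libraries, BOLA-DRA and CD74 (19.7%, 26.9%, 17.3% and 17.8% of all genes), and 0 were lower (30.8%, 26%, 33.1% and 38.4%).

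The B cell markers served as the measure of signal in CD3E-positive cells for genes of another cell type, and the source of that signal was not tested. The 10 B cell markers summed reached 1.91%, 1.38%, 1.498% and 3.26% of their MS4A1-positive level in CD3E-positive cells. BOLA-DRA stood at 1.77%, 1.03%, 1.26% and 2.54% of its MS4A1-positive level, and CIITA at 1.46%, 0.820%, 1.30% and 2.00%. CD74 stood at 2.07%, 1.65%, 2.07% and 3.15%. The DM genes and BOLA-DOB stood at 1.28% to 3.65%. In each library these 6 members lay below the highest single B cell marker, CD79A, at 5.88%, 5.08%, 5.16% and 10.4%, and no expression in CD3E-positive cells is read from their levels. BOLA-DOB lay above the summed markers, with intervals that did not overlap, without LPS (2.25% to 3.28% against 1.76% to 2.06%), at 2 h and at 4 h. CD74 and BOLA-DMB lay above them in this way at 2 h and 4 h. In UMI terms, BOLA-DRA was seen in 7.39% to 13.7% of CD3E-positive cells and in 89.4% to 97.8% of MS4A1-positive cells, at median depths of 4078 to 5250 and 3856 to 5410 UMIs per cell.

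BOLA-DOA was the exception. Its level in CD3E-positive cells was 8.97, 9.04, 8.27 and 7.90 CPM, which is 18.4% (15.0% to 22.4%), 23.0%, 29.6% and 32.3% of its MS4A1-positive level. BOLA-DOA lay above all 10 B cell markers in each library, with intervals that did not overlap that of CD79A. BOLA-DOA was found in 3.78%, 3.66%, 3.8% and 3.60% of CD3E-positive cells, an even share over the libraries, and in 1.01%, 1.87%, 2.06% and 1.18% of CD14-positive cells.

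**Figure D2:**
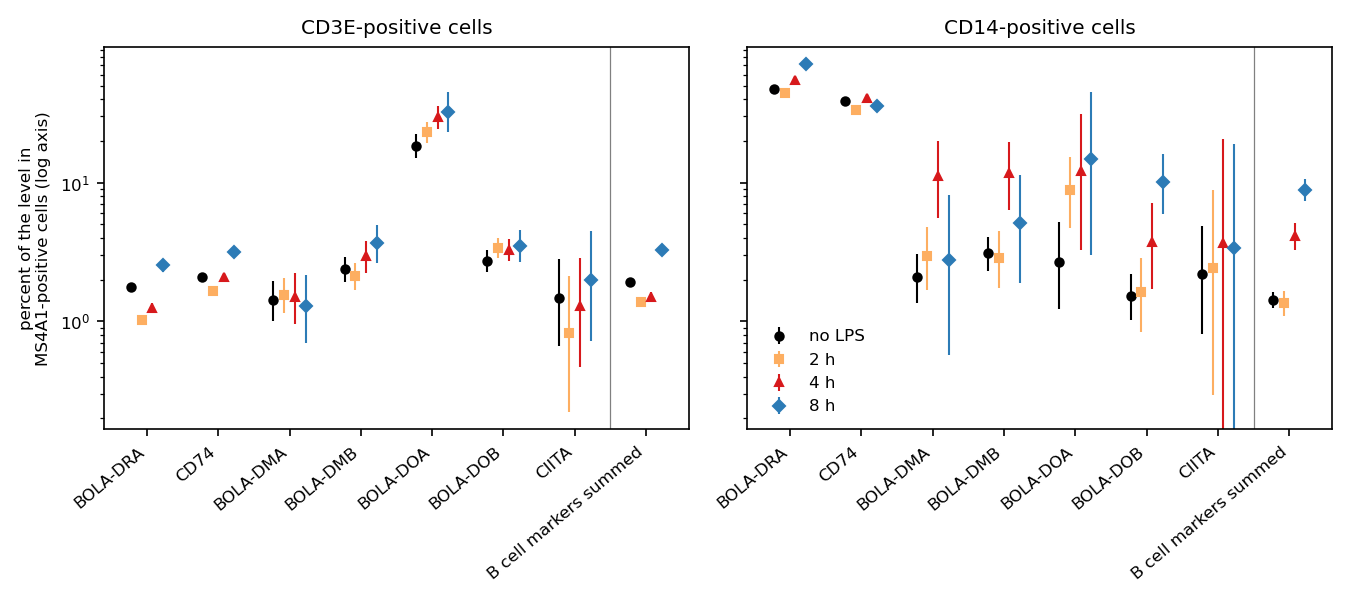
Level of 7 members and of 10 B cell markers summed in CD3E-positive (left) and CD14-positive cells (right), as a percent of the level in MS4A1-positive cells of the same library (log axis), with 95% counting intervals, by library. In CD3E-positive cells BOLA-DOA stands apart at 18.4% to 32.3%, and in CD14-positive cells BOLA-DRA and CD74 stand at 33.5% to 71.0%, above the summed markers at 1.35% to 8.86%.

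In CD14-positive cells the same measure split the members. BOLA-DRA and CD74 stood at 33.5% to 71.0% of the MS4A1-positive level, while the summed B cell markers stood at 1.44%, 1.35%, 4.10% and 8.86%. BOLA-DMB stood at 3.09%, 2.88%, 11.6% and 5.14%, BOLA-DMA at 2.08%, 2.95%, 11.1% and 2.78%, and BOLA-DOB at 1.53%, 1.63%, 3.75% and 10.1%. The single B cell markers ranged from 0.355% to 23.4% in these cells, and the DM and BOLA-DOB values rest on 3 to 56 UMIs. At 2.32% to 4.02%, the interval of BOLA-DMB without LPS lay above the summed markers. BOLA-DQA5 stood at 26.0% without LPS on 15 UMIs (13.8% to 46.1%).

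In MS4A1-positive cells, the DM genes at 4 h had the largest ratios of the members at any time in LPS. Ratios to the library without LPS are log2((CPM + 1)/(CPM + 1)), for members with at least 20 UMIs over both sums, which left out BOLA-DYA. BOLA-DMB was at 265, 187, 102 and 141 CPM, lowest at 4 h, where it fell by 1.37 on the log2 scale (interval -1.48 to -1.27). BOLA-DMA was at 182, 146, 83.9 and 131 CPM and fell by 1.11 at 4 h (-1.24 to -1.0). For both chains the 4 h library was lowest and none of the intervals of the LPS libraries overlapped that of the library without LPS. With every cell holding an MS4A1 UMI, and with the mean of each cell's CPM, the ratio of BOLA-DMA was -0.97 and no longer 2-fold. These were the 2 members of 10 past the 2-fold limit at 4 h, where 4.63% of all genes were at least 2-fold lower. At 2 h and 8 h, 0 of 10 members passed the limit downward, where 1.7% and 1.91% of all genes did, and none passed it upward at any time (2.59%, 2.58% and 1.71% of all genes). After thinning to 1000 UMIs per cell, BOLA-DMB was seen in 21.7%, 18.3%, 11.4% and 11.8% of the cells (unthinned 58.9%, 51.1%, 35.3% and 40.3%), so the thinned shares at 4 h and 8 h were close to each other. BOLA-DMA was seen in 17.5%, 14.9%, 10.0% and 11.2% of thinned cells (unthinned 51.1%, 46.5%, 33.4% and 43.6%).

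The DO genes moved less and differed in course. BOLA-DOB had ratios of -0.52 (-0.61 to -0.44), -0.49 and -0.41 (-0.53 to -0.30), at about one lower level in all LPS libraries. BOLA-DOA had ratios of -0.30 (-0.51 to -0.11), -0.78 and -0.97 (-1.33 to -0.67), lower with each later library. The levels of BOLA-DOB at 2 h and 4 h had overlapping intervals.

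CIITA had ratios of -0.82 (-1.08 to -0.60), -0.75 (-1.02 to -0.54) and -0.14 (-0.44 to 0.15). Its level was lower at 2 h and 4 h, while the 8 h interval included 0. CIITA was seen in 4.83%, 2.41%, 2.46% and 3.55% of cells thinned to 1000 UMIs (unthinned 15.9%, 9.98%, 12.3% and 18.0%). These thinned shares rest on 79, 57, 46 and 22 cells with a UMI.

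BOLA-DRA and CD74 parted over time. BOLA-DRA had ratios of 0.22 (0.19 to 0.24), -0.23 (-0.25 to -0.20) and -0.78 (-0.82 to -0.74), higher at 2 h than without LPS and lowest at 8 h. CD74 had ratios of 0.02, 0.03 and -0.26 (-0.30 to -0.22), within 0.03 of no difference until 4 h. The row BLA-DQB was at 2134, 2283, 1681 and 1024 CPM in MS4A1-positive cells, with its highest value at 2 h and its lowest at 8 h, as for BOLA-DRA. BOLA-DQA5, BOLA-DQB and BOLA-DYB had 8 to 112 UMIs in each sum and ratios from -0.95 to 0.10. Over the 10 members the median ratio to no LPS was -0.31, -0.55 and -0.59 at the 3 times. The median over all genes tested was -0.12, -0.09 and 0.01.

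**Figure D3:**
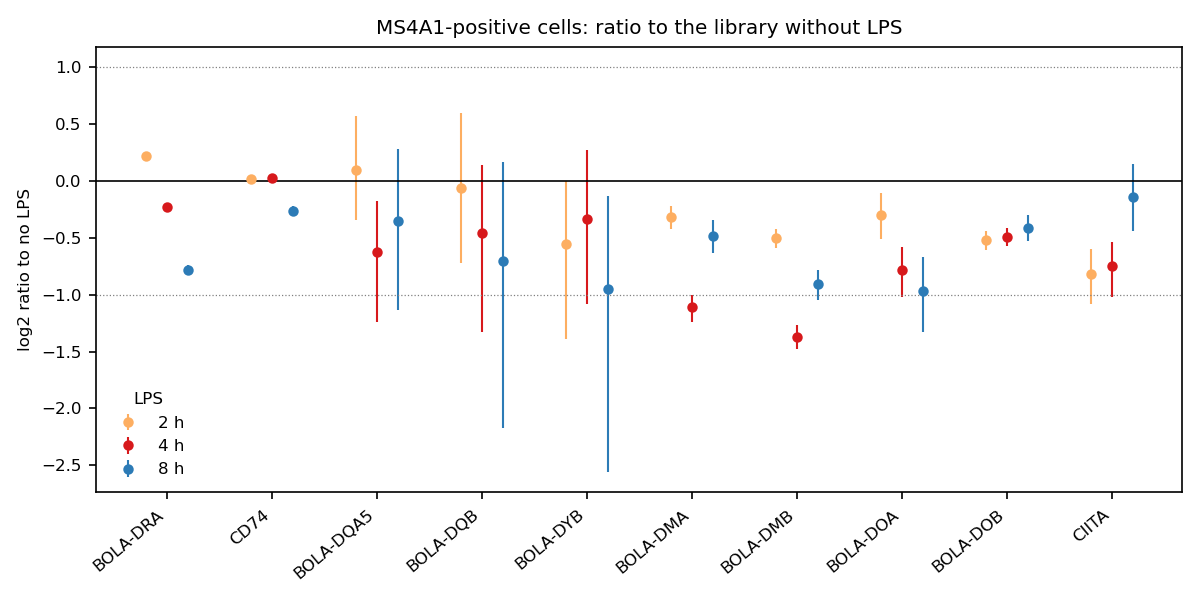
log2 ratio to the library without LPS in MS4A1-positive cells for 10 members at 2 h, 4 h and 8 h, with 95% counting intervals and dotted lines at a 2-fold difference. At 4 h BOLA-DMA (-1.11) and BOLA-DMB (-1.37) lie past the lower line, and at 8 h all 10 members lie below 0.

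The share of MS4A1-positive cells with a CD83 UMI differed between libraries. CD83, an activation marker that protects class II molecules from ubiquitination, was found in 30% of these cells without LPS and in 70.5%, 68.5% and 52.2% with LPS. Cells with and without a CD83 UMI were therefore summed apart, a split chosen after the data were seen. BOLA-DMB was at 162, 147, 65.2 and 96.7 CPM in cells with CD83, and at 320, 315, 209 and 221 CPM in cells without it. Cells with CD83 were thus lower in each library, also without LPS. At 2 h the ratio of BOLA-DMB was -0.14 (-0.30 to 0.02) with CD83 and -0.02 (-0.14 to 0.09) without it, nearer to 0 than the -0.50 of the whole class. At 4 h it was -1.30 (-1.49 to -1.13) with CD83 and -0.61 (-0.75 to -0.48) without it. So the 2 h intervals of both CD83 sets included 0, while at 4 h both sets were lower. The share of cells with CD83 itself differed with LPS, so the sets need not hold the same kinds of cells in each library. A shift of cells between the sets and a change in which cells were sampled cannot be told apart.

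BOLA-DMA at 4 h likewise had a ratio of -1.06 (-1.27 to -0.87) with CD83 and -0.49 (-0.65 to -0.33) without it. CIITA had ratios of -0.83, -0.92 and -0.25 in cells with CD83. In cells without CD83 its ratios were -0.26, -0.05 and 0.25, each with an interval that included 0. Within this split, the higher BOLA-DRA at 2 h was found in cells with CD83, at 2520 CPM without LPS and 3426 CPM at 2 h (ratio 0.44, 0.41 to 0.48). Cells without CD83 had a ratio of 0.02 (-0.01 to 0.06). Cells with CD83 were deeper, with medians of 4454, 4633, 5623 and 6638 UMIs against 3686, 3600, 4230 and 3701, and the part of depth in these differences was not tested.

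**Figure D4:**
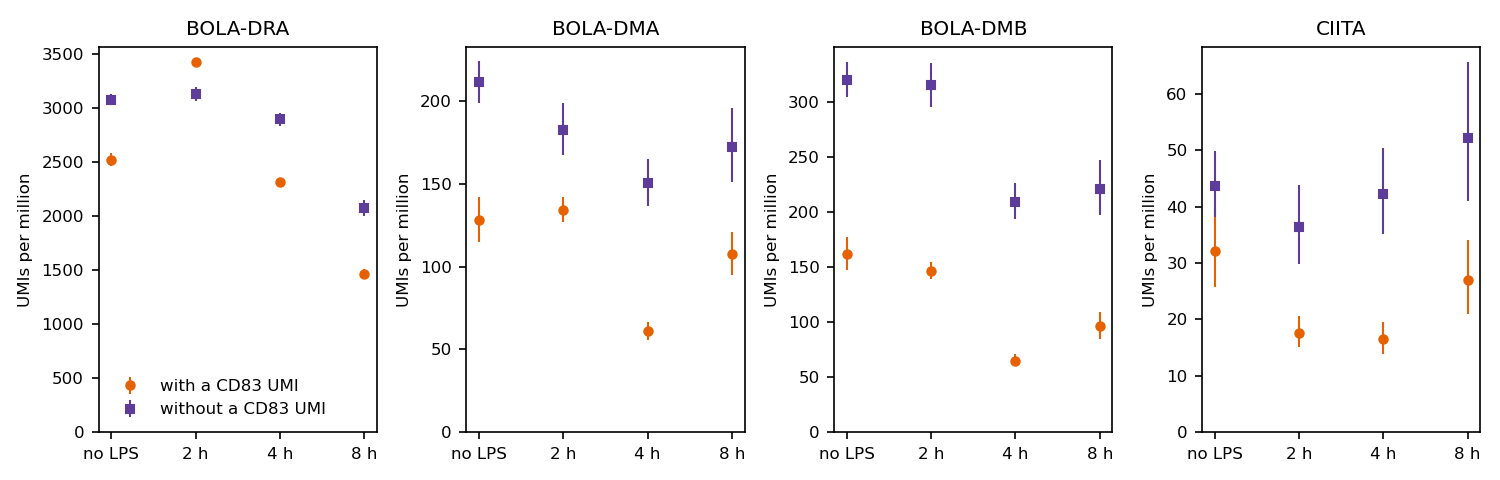
Level of BOLA-DRA, BOLA-DMA, BOLA-DMB and CIITA in MS4A1-positive cells with (circles) and without a CD83 UMI (squares), in CPM by library, with 95% Poisson intervals. BOLA-DMB is lower in cells with CD83 in each library, and BOLA-DRA is highest at 2 h in cells with CD83.

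The DM difference at 4 h was also present in MS4A1-positive cells split by VPREB3 and by FCRLA, both B cell markers. Their positive shares were 54.8% and 47.1% without LPS and 43.4% and 37.8% at 4 h. BOLA-DMB had a 4 h ratio of -1.02 with VPREB3 and -1.70 without it, and of -0.97 with FCRLA and -1.68 without it. Unlike in the CD83 split, it was also lower at 2 h in every set. Those ratios were -0.48 with VPREB3 and -0.54 without it, and -0.40 with FCRLA and -0.47 without it. In each split the cells without the marker had the lower BOLA-DMB ratio at 4 h, while at 2 h the intervals of both sets overlapped. BOLA-DRA was higher at 2 h with VPREB3 (0.30) and without it (0.12), and with FCRLA (0.14) and without it (0.32). CIITA was lower at 2 h with VPREB3 (-0.91) and without it (-0.69), and with FCRLA (-0.38) and without it (-1.25).

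CD14-positive cells held BOLA-DRA and CD74 near the level without LPS. BOLA-DRA had ratios of 0.13 (0.09 to 0.18), -0.01 and -0.18 (-0.28 to -0.09), and CD74 of -0.19, 0.09 and -0.39 (-0.52 to -0.27). At 2 h these values depend on scaling, since the median of all genes was -0.51 in this class, and TMM scaling raised all ratios by 0.48. DESeq2 size factors gave 0.68 for BOLA-DRA and 0.36 for CD74 at 2 h, so both members were higher than the median gene, while the mean of each cell's CPM gave -0.16 and -0.50. That mean gave -0.73 for BOLA-DRA at 4 h. While their CPM changed little, the share of CD14-positive cells with BOLA-DRA was 85.2%, 69.5%, 53.4% and 68.0%, and after thinning to 1000 UMIs 63.3%, 52.6%, 42.4% and 47.7%. CD74 was seen in 52.2%, 39.7%, 35.6% and 37.7% of thinned CD14-positive cells (unthinned 83.6%, 67.1%, 53.4% and 53.3%). Beside this, the 4 neutrophil markers summed to 9017, 5053, 6059 and 10330 CPM in CD14-positive cells, and the 10 monocyte markers to 37080, 12310, 7572 and 10560 CPM. Their part in these shares was not tested.

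At 4 h, 1 of 5 members counted in CD14-positive cells was past the 2-fold limit upward (6.9% of all genes), and at 8 h 1 of 5 (11.3% of all genes), against 0 of 6 at 2 h (4.26% of all genes). They were BOLA-DMA at 4 h, with a ratio of 1.11 on 11 UMIs, and BOLA-DOB at 8 h, with a ratio of 2.08 on 18 UMIs and of 1.12 in cells with at least 1500 UMIs. The ratio of BOLA-DMA turned to -0.26 with every cell holding a CD14 UMI and to -0.52 with the mean of each cell's CPM. B cell markers moved with BOLA-DOB in this class, from 32.7 to 156 CPM between no LPS and 8 h, all 10 with a UMI at both times. Their part in the BOLA-DOB ratio was not tested. No member was past the limit downward (19%, 9.74% and 4.47% of all genes).

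In FLT3-positive cells BOLA-DRA fell by 1.30 at 8 h (-1.44 to -1.15), from 11410 to 4649 CPM, after ratios of -0.10 and -0.08 at 2 h and 4 h. After thinning, the median cell held 10, 10, 12 and 2 BOLA-DRA UMIs per 1000, and at 8 h the highest of 6 cells held 4. CD74 had a ratio of -0.28 (-0.43 to -0.12) at 8 h, with medians of 6.5, 5, 5.5 and 3.5 UMIs per 1000. BOLA-DMA had 26, 22, 7 and 0 UMIs, and 0 UMIs at 8 h allows up to 32.5 CPM by the limit of 3 UMIs (exact Poisson limit 39.98 CPM) against 93.1 CPM without LPS. BOLA-DRA and BOLA-DMA were the 2 of 3 members past the limit downward at 8 h (12.4% of all genes). BOLA-DMA was counted there only through its 26 UMIs without LPS. BOLA-DMB (1 UMI at 8 h and 17 without LPS) and BOLA-DOA (3 and 15 UMIs) had too few to be counted. Nothing is therefore read from the count at 8 h. At 2 h, 0 of 5 members (10.1% of all genes), and at 4 h, 0 of 4 (15% of all genes), were past the limit downward. With at least 2 UMIs of FLT3 per cell, the 2 h ratio of BOLA-DMA turned from 0.54 to -2.34. No member was past the limit upward (8.13%, 9.72% and 9.51% of all genes). The 8 h values rest on 6 cells of 1 library. The rows closest in pattern to BOLA-DRA, ENSBTAG00000013919 and ENSBTAG00000037605, are named by Ensembl identifier alone. They were at 9404 and 3826 CPM in these cells without LPS and at 4443 and 1116 CPM at 8 h. Both were picked for their likeness to BOLA-DRA over sums that include these, so their lower values are no separate evidence.

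In CD3E-positive cells none of 6 members was past the limit at any time, upward (0.568%, 1.05% and 0.638% of all genes) or downward (0.308%, 0.73% and 0.503%). BOLA-DRA had ratios of -0.55, -0.70 and -0.25 and BOLA-DMB of -0.57, -0.87 and -0.25 there, at levels from which no expression was read above. With the mean of each cell's CPM, the 8 h ratio of BOLA-DRA turned to 1.26 and was past the limit, and that of CD74 was 0.99. BOLA-DOA, which stood above the B cell markers, had ratios of 0.01 (-0.31 to 0.33), -0.10 (-0.45 to 0.22) and -0.16 (-0.63 to 0.25).

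Genes that work with class II molecules were counted by list in MS4A1-positive cells, where 2.59%, 2.58% and 1.71% of all genes were past the limit upward at 2 h, 4 h and 8 h. Of the peptide loading and processing genes, 14 of 15 had enough UMIs, and 1 rose past the 2-fold limit at 2 h and 0 at 4 h and 8 h. That gene was IFI30, the lysosomal thiol reductase, at 421, 1600, 827 and 374 CPM (2 h ratio 1.92, 1.87 to 1.98). CTSS, the protease that trims CD74, was at 131, 135, 136 and 134 CPM, an even level. Of 15 transcription genes, 2 rose at 2 h, 1 at 4 h and 0 at 8 h. PRDM1, a repressor of CIITA, was at 9.96, 27.7, 21.9 and 19.1 CPM, with ratios of 1.39, 1.06 and 0.88, and was above the level without LPS in all LPS libraries. IRF4 was at 37.0, 128, 55.4 and 37.5 CPM, with a ratio of 1.77 at 2 h.

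The factors that assemble on class II promoters did not pass the limit. RFX5 had ratios of 0.40, 0.37 and 0.53, and RFXANK had ratios of -0.53, -0.68 and -0.69 with all intervals below 0. Of 5 turnover genes counted, 2 rose at 2 h, CD83 (ratio 2.69) and IL10 (1.34), and 1 at 4 h, CD83 (1.89). The ubiquitin ligase gene MARCHF8 had ratios of -0.64 and -0.67 at 2 h and 4 h. Of the costimulation genes, 1 of 5 rose at 2 h and at 4 h, CD40, at 80.3, 472, 262 and 127 CPM. Of 15 class I presentation genes, 0 passed the limit at any time, and the list's median ratio was 0.03, 0.12 and 0.07. No gene of the 5 lists was past the limit downward, where 1.7%, 4.63% and 1.91% of all genes were. The lists had medians between -0.41 and 0.44.

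By Pearson correlation of log2(CPM + 1) over the 16 sums of 4 classes and 4 libraries, the genes most like BOLA-DRA among 9618 were ENSBTAG00000013919 (r = 0.999), ENSBTAG00000037605 (0.993) and CD74 (0.991), with IFI30 the fifth (0.979). For CD74, BLA-DQB reached 0.979. BOLA-DOB was most like TNFRSF13C, the BAFF receptor of B cells (0.979), followed by ELL3 (0.973), CENPM (0.968), CERS4 (0.964) and PSAT1 (0.962). CIITA was most like MEF2C (0.964), PXDC1 (0.962), CARD9 (0.948), NREP (0.943) and TTLL1 (0.927). Among members, BOLA-DMA and BOLA-DMB had r = 0.944 and BOLA-DMB and CIITA r = 0.920, while BOLA-DOB had r = 0.057 with BOLA-DRA and 0.094 with CD74. The 16 sums share libraries and differ in depth, so these values describe them and are given with no test.

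In the scATAC-seq tables, which hold counts of open chromatin per gene and nucleus, 8 of the 11 members were listed. BOLA-DYB, BOLA-DQB and BOLA-DQA5 were not, nor were FLT3 and CD3E, so nuclei could not be classed as cells were. The tables held 975012, 30250143, 26837579 and 11957904 counts, and LPS libraries were therefore compared with 2 h rather than with the shallow library without LPS. Most counts were even numbers, 88.7% to 93.8% of those above 0, and intervals were computed on counts divided by 2. At 4 h and 8 h, 0 of 8 members differed 2-fold from 2 h, where 0.457% and 1.17% of all genes were higher and 1.46% and 6.69% lower, and the members' median ratio was -0.03 and 0.02.

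CIITA was at 298, 216, 221 and 168 CPM in scATAC-seq, highest without LPS and lowest at 8 h (ratio of 8 h to 2 h -0.36, -0.47 to -0.26). BOLA-DMB was at 76.9, 61.6, 57.6 and 66.7 CPM and BOLA-DMA at 103, 100.3, 107 and 113 CPM. The 4 h ratio to 2 h was -0.09 (-0.24 to 0.04) for BOLA-DMB and 0.09 (-0.01 to 0.20) for BOLA-DMA. BOLA-DMB thus had its lowest accessibility value at 4 h, with an interval of the ratio that included 0, and BOLA-DMA did not have its lowest value there. BOLA-DRA was at 76.9, 50.4, 52.8 and 62.3 CPM, with a ratio of 0.30 (0.12 to 0.48) at 8 h. CD74 was at 191, 141, 145 and 160 CPM and BOLA-DOB at 72.8, 54.8, 51.8 and 51.8 CPM. These are values over all nuclei, and B cell genes were likewise highest without LPS. PAX5 was at 305, 242, 245 and 213 CPM, lowest at 8 h as CIITA was. MS4A1 was at 168 CPM without LPS, 94.6 CPM at 2 h and 103 CPM at 8 h, and CD79A at 114, 69.7 and 67.8 CPM. The part of B cell nuclei in the values of CIITA, BOLA-DRA and CD74 was not tested. BOLA-DYA, almost without UMIs, had accessibility counts of 6.15, 23.2, 21.8 and 13.3 CPM. Against the library without LPS, 1 of 8 members was at least 2-fold higher at 2 h, BOLA-DYA on 6 counts without LPS (9.22% of all genes), and 0 were lower (5.87%).

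**Figure D5:**
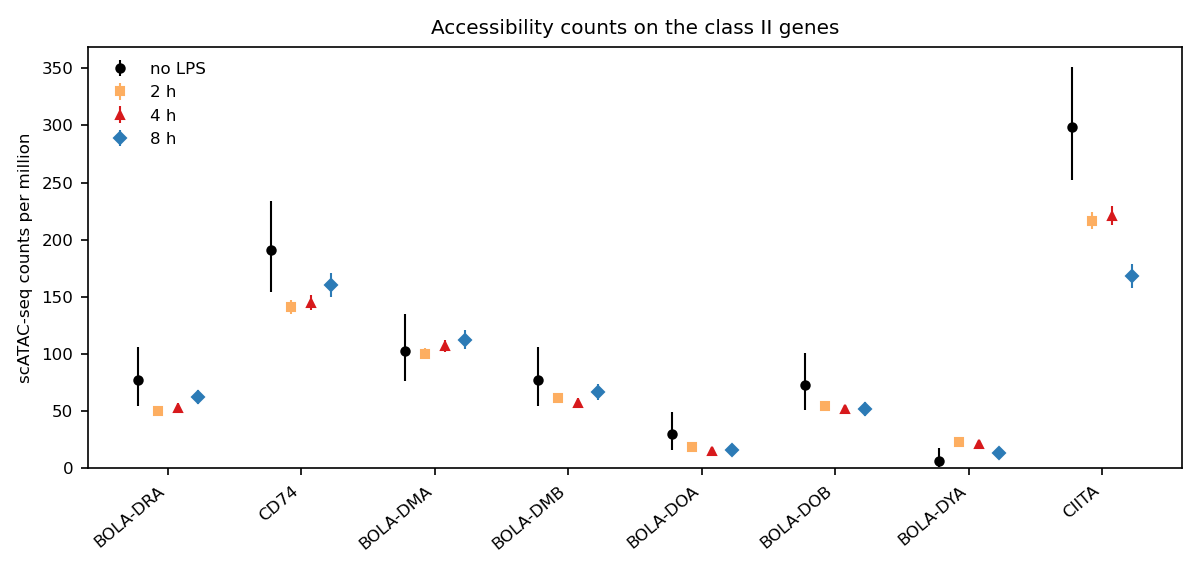
Accessibility counts in CPM on 8 members by library, with 95% Poisson intervals on counts divided by 2. CIITA is lowest at 8 h (168) and the library without LPS has the widest intervals, from 975012 counts in all.

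Nuclei with a count at MS4A1 (82, 988, 757 and 428) were set beside nuclei without a count at MS4A1, PAX5, CD79A or CD79B, a split chosen after the data were seen. In the 3 LPS libraries CIITA was 2.38, 2.28 and 2.45 times higher in nuclei with MS4A1, BOLA-DRA 1.98, 2.20 and 2.26 times and BOLA-DOB 2.08, 1.98 and 1.72 times. The library without LPS is not given, for its low depth. BOLA-DMA stood at 0.975, 0.944 and 1.05 times, so it alone of the 8 members had no higher count in MS4A1 nuclei at 2 h and 4 h. The nuclei with MS4A1 were deeper (medians of 8594, 11207 and 5596 against 3476, 2670 and 1678 counts), and the part of depth was not tested. The libraries without LPS and at 2 h shared 228 barcodes, other pairs 10 to 31. Without the shared barcodes CIITA was at 308 CPM without LPS and 216 CPM at 2 h, and BOLA-DMB at 76.2 and 63.6 CPM.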

How the data were processed

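The scRNA-seq tables deposited by the authors hold unnormalized UMI counts from Cell Ranger against ARS-UCD1.2. In the deposited scATAC-seq tables each value is a count at a gene, and the rule that assigns fragments to genes is not given in the sources used here. Members and gene lists were chosen with earlier results of these data known.

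A cell was kept if it had 200 to 3000 genes, 200 UMIs or more, and a mitochondrial share below 20%. Doublets were not called, and 2063 cells with UMIs of several class genes entered no class. Intervals are exact Poisson for levels, exact binomial (Clopper-Pearson) for shares and exact conditional binomial for ratios. PCR duplicates are collapsed by UMIs in scRNA-seq. Named genes are the members, pathway genes past the 2-fold limit and the 5 genes most like BOLA-DRA, BOLA-DOB, CD74 and CIITA with at least 200 UMIs, and the other genes given with values were chosen after these were seen. Python 3.11.15, numpy 2.4.6, scipy 1.17.1 and pandas 2.3.3 were used. Alternative scaling used edgeR 4.0.16 (TMM) and DESeq2 1.42.0 (size factors), with no test. The ratio step was tested on simulated data. No sequence was used.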

Additional observations from a re-analysis of the deposited data

Results flagged for a closer look

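BOLA-DMA at 4 h moved in opposite directions in 2 classes, with a log2 ratio to no LPS of -1.11 in MS4A1-positive cells and 1.11 in CD14-positive cells. The difference between the classes was not tested, since each has 1 library per treatment. The value in CD14-positive cells rests on 11 UMIs at 4 h and 26 without LPS, and its direction turned with every cell holding a CD14 UMI and with the mean of each cell's CPM.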

How the results depend on the processing

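Of 185 alternative values for list medians and counts of members, 169 stayed, 15 moved and 1 reversed, and of 830 alternative values for single members 718 stayed, 110 moved and 2 reversed. A ratio stayed if it lay within the 95% counting interval of its first value (for a median, between the medians of the members' bounds) and a count if it was within 1.5 times. Reversed means that the sign changed for a member past 2-fold, or for a median whose bounds did not include 0. In MS4A1-positive cells at 4 h, the 2 members at least 2-fold lower became 1 with every cell holding a class gene UMI and 1 with the mean of each cell's CPM, as BOLA-DMA moved to -0.97. At 8 h the count of 0 became 1 with at least 2 UMIs of the class gene, 2 without an upper limit on genes, 1 with cells of at least 1500 UMIs, 1 with the mean of each cell's CPM and 1 with a pseudocount of 0.1. In CD14-positive cells the median of -0.03 at 2 h became 0.42 with TMM and 0.48 with DESeq2 size factors, and that of 0.49 at 4 h became -0.52 with the mean of each cell's CPM. BOLA-DMA at 4 h turned from 1.11 to -0.26 with every cell holding a CD14 UMI and to -0.52 with the mean of each cell's CPM. In FLT3-positive cells at least 2 UMIs of FLT3 gave a median over the members counted of -0.53 in place of 0.03 at 2 h and -0.59 in place of -1.30 at 8 h, where the mean of each cell's CPM gave a median of -1.58. These medians cover different numbers of members. In CD3E-positive cells the median of -0.25 at 2 h became 0.03 with every cell holding a class gene UMI, and that of -0.21 at 8 h became 0.48 with the mean of each cell's CPM. For scATAC-seq at 8 h against 2 h, the share of barcodes with a count gave -0.84 in place of 0.02. That share is not scaled for depth, and the median barcode held 2250 counts at 8 h and 5171 at 2 h. The cause was not tested for any of these. The counts of members past the limit, the CD83, VPREB3, FCRLA and MS4A1 splits and the removal of shared barcodes were chosen after seeing the data. No paired analysis was possible because each treatment has 1 library per assay. The depth of FLT3-positive cells (6 at 8 h) and of the scATAC-seq library without LPS limits what can be seen there.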

Other observations

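The same gene lists gave these values in the other classes, as ratios to no LPS on the log2 scale. In CD14-positive cells PRDM1 rose at every time, with ratios of 2.13, 1.94 and 1.25, as did IRF1, an interferon response factor (1.23, 1.43 and 1.72), and CD83 (1.31, 1.35 and 1.38). IL10, a cytokine that lowers class II display in monocytes, was at 184 CPM without LPS and 647, 480 and 238 CPM with LPS, and CD274 (PD-L1) had ratios of 1.75, 1.77 and 0.84. AP2M1, a subunit of the clathrin adaptor, fell by 1.58 at 2 h, and TAP1, the class I peptide transporter, rose by 1.44 at 8 h, the one class I gene of 14 past the limit in these cells, where 11.3% of all genes were. CTSL at 8 h had 1.21 CPM against 6.43 CPM without LPS, with an interval of the ratio that included 0. RFXANK, a subunit of the factor that binds class II promoters, had a ratio of -1.35 at 2 h, where the median of all genes was -0.51, 19% of all genes were at least 2-fold lower, and TMM scaling raises each ratio by 0.48, which ends this call. IRF8 (1.37), IRF4 (1.1) and the ubiquitin ligase gene MARCHF8 (1.38) rose at 8 h. In the same class the summed markers of B cells went from 32.7 CPM without LPS to 156 CPM at 8 h, those of NK cells from 25.1 to 134 CPM and those of T cells from 434 to 839 CPM, with all markers of the 3 lists seen at both times and 44.4% of the cells under 1500 UMIs at 8 h. Their part in these ratios was not tested.

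In FLT3-positive cells CD86, a costimulator, was at 46.6, 234, 182 and 206 CPM, with ratios of 2.30, 1.95 and 2.12, while LGMN, an endosomal protease, was at 760, 271, 365 and 520 CPM. All 3 costimulation genes counted rose at 2 h, with CD274 at 1.44 and CD40 at 1.04, on 16 cells. CD86 alone of the 3 was past the limit at 4 h and 8 h, on 8 and 6 cells. Of all genes, 8.13%, 9.72% and 9.51% were at least 2-fold higher at 2 h, 4 h and 8 h. At 4 h the cathepsin genes split, with CTSZ at 2.38 and CTSB at 2.11 against CTSH at -1.98 and CTSC at -1.73, on 8 cells. Of 11 class I genes counted, 1 was lower at 2 h (PSME1), 3 at 4 h (PSMB8, PSMB9 and PSME2) and 0 at 8 h, where 10.1%, 15% and 12.4% of all genes were lower, on 16, 8 and 6 cells. In CD3E-positive cells IRF4 had ratios of 1.54, 1.96 and 1.46 and CD83 of 1.95, 1.87 and 1.06, while CTSZ fell by 1.03 at 2 h and at 4 h. The 10 monocyte markers summed to 268, 67.6, 49.8 and 216 CPM in these cells. Their part in the CTSZ ratios was not tested. No class I gene of 15 was past the limit in CD3E-positive cells. Of all genes there, 0.568%, 1.05% and 0.638% were past it upward and 0.308%, 0.73% and 0.503% downward. The remaining marker lists in MS4A1-positive cells summed to 18.5 to 23.9 CPM for NK cells, 114 to 328 CPM for plasma cells, 13.6 to 268 CPM for neutrophils, 4.71 to 11.0 CPM for platelets, 12.8 to 28.1 CPM for erythrocytes, 45.3 to 332 CPM for monocytes, 50.8 to 164 CPM for dendritic cells and 72.9 to 113 CPM for T cells.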
